A study of Mus musculus with 9 samples.

Results

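The effect of AMAP on mouse hepatocytes 2 h after dosing was read from 2 microarrays, the AMAP array and the control array of that time, out of 9 in the series. For each probe set (a group of probes for 1 transcript) the control value was subtracted from the AMAP value on the log2 scale, on which a difference of 1 is 2-fold. All 12393 genes named by a probe set with a single gene symbol were compared, and each gene was represented by its brightest such probe set. A gene was called 2-fold apart when its difference reached 1 and the brighter of both arrays read 5.66 or more, which is the median over the whole table. The table gave 93 genes called higher with AMAP (0.75% of the 12393) and 30 called lower (0.242%).

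The cells were TAMH, a mouse hepatocyte line that the labels give as liver cells of strain C57BL/6 and that was derived from mice carrying a transforming growth factor alpha transgene. Confluent cultures received 2 mM AMAP, 2 mM APAP or control culture medium for 2, 6 or 24 h, and the RNA of 2 dishes per treatment was hybridised to 1 Affymetrix 430A_2 array. By the labels, the control cultures of 2 h shared the line, the confluence and the harvest with the AMAP cultures and lacked the compound. A culture of 1 line does not hold the other cells of a liver.

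APAP is the analgesic acetaminophen, in which the hydroxyl group stands para to the acetamide group, and AMAP is its regioisomer with the hydroxyl group in the meta position. Cytochrome P450 enzymes oxidise APAP to the quinone imine NAPQI, which depletes glutathione and binds proteins, among them proteins of mitochondria. AMAP also gives reactive metabolites that bind protein, and it is known as the less hepatotoxic isomer in mice. The early transcriptional response to a reactive chemical usually runs through stress kinases and the AP-1 factors they induce, through p53, through the eIF2alpha and ATF4 arm called the integrated stress response, and through NRF2.

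No group had a replicate array, so no p-value was computed, and the only spread available was the one between the 3 control arrays, which differ in culture time. That spread was not small. The control arrays differed from each other by 2-fold in 67 genes between 2 and 6 h, in 59 between 2 and 24 h and in 82 between 6 and 24 h, against 123 between AMAP and control at 2 h. From the control of 6 h the AMAP array of 2 h differed by 2-fold in 74 genes, and from that of 24 h in 60. These counts were within the range of those between controls. Among the 6700 expressed genes, those with a mean over the 9 arrays of at least 5.67, the AMAP-minus-control difference had a median of -0.01 and an SD of 0.32. The SD between control arrays was 0.31 for 2 and 6 h, 0.27 for 2 and 24 h and 0.34 for 6 and 24 h. AMAP was above all 3 controls in 17.1% of expressed genes and below all 3 in 26.4%. All 6 measured hepatocyte markers were expressed, among them albumin (Alb, 13.28 on the control array and 13.09 with AMAP). Of the markers of other liver cells, 1 of 10 for macrophages, 0 of 9 for stellate cells and fibroblasts, 0 of 8 for endothelial cells and 4 of 6 for cholangiocytes were expressed. The 18 bacterial hybridisation spike-in probe sets were all lower on the AMAP array than on the control of 2 h, with a median difference of -0.47. Of the 24 poly-A spike-in probe sets 23 were higher, with a median of 0.15. The hybridisation median, from the same control of 2 h, was -0.17 for the control of 6 h and -0.29 for that of 24 h. With APAP at 2 h it was -0.07. Poly-A medians were 0.11, 0.04 and 0.05 in the same order. The part of these technical shifts in the gene results was not tested.

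**Figure D1:**
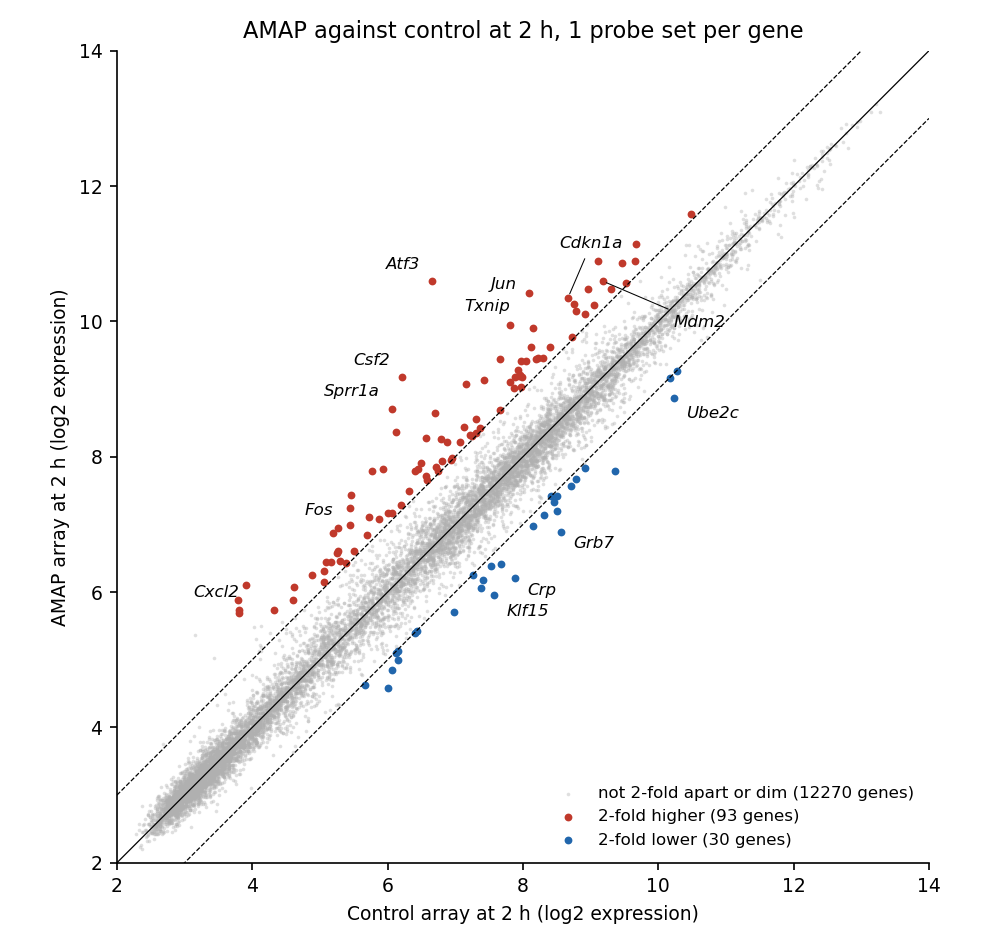
Each point is 1 of 12393 genes, with its log2 expression on the control array at 2 h on the horizontal axis and on the AMAP array at 2 h on the vertical axis. The solid line marks equal values and the dashed lines 2-fold differences. The 93 genes called higher (red) reach a difference of 3.93 at Atf3, and the 30 called lower (blue) reach -1.67 at Crp.

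The AP-1 and ATF factors had the highest median of the whole lists. AP-1 is a dimer of Jun, Fos, ATF and Maf proteins whose genes are switched on within minutes of a stress signal. All 9 expressed members were higher with AMAP, against 45.1% of all expressed genes, with a median difference of 1.15 against -0.01 over all expressed genes, and 5 of the 9 were 2-fold higher, against 1.24% of expressed genes. AMAP stood above all 3 controls in 8 of them, and against the mean of the controls of 6 and 24 h the median was 0.45.

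Atf3, a stress-induced repressor and partner of AP-1 proteins, had the largest difference on the array. It measured 6.66 on the control array at 2 h, 7.03 at 6 h and 7.73 at 24 h. With AMAP it measured 10.59 at 2 h, 6.78 at 6 h and 9.67 at 24 h, and with APAP 7.07, 6.47 and 9.84 at the same times. The AMAP array of 2 h was the highest of the 9, 3.93 above its control, and the AMAP array of 6 h lay within the range of the controls.

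Jun, the main AP-1 subunit, followed the same course over time. Its values were 8.09, 7.999 and 8.82 on the control arrays at 2, 6 and 24 h, 10.42, 7.90 and 10.25 with AMAP, and 7.96, 7.18 and 9.25 with APAP. Its second probe set was higher with AMAP by 1.27 at 2 h, against 2.33 for the brightest one. Junb went from 7.15 to 9.07 between the control and AMAP arrays of 2 h, with the other controls at 8.17 and 8.41. Fosl1 went from 5.45 to 7.25, where the other controls were at 6.90 and 6.68 and APAP at 2 h was higher still, at 7.70. Maff (difference 1.15), Fosl2 (0.92) and Mafk (0.74) were higher by less, and Jund (0.22) and Mafg (0.00) hardly differed. Fos was called as well, from 5.26 to 6.95, but its mean over the arrays was too low for the expressed set.

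**Figure D2:**
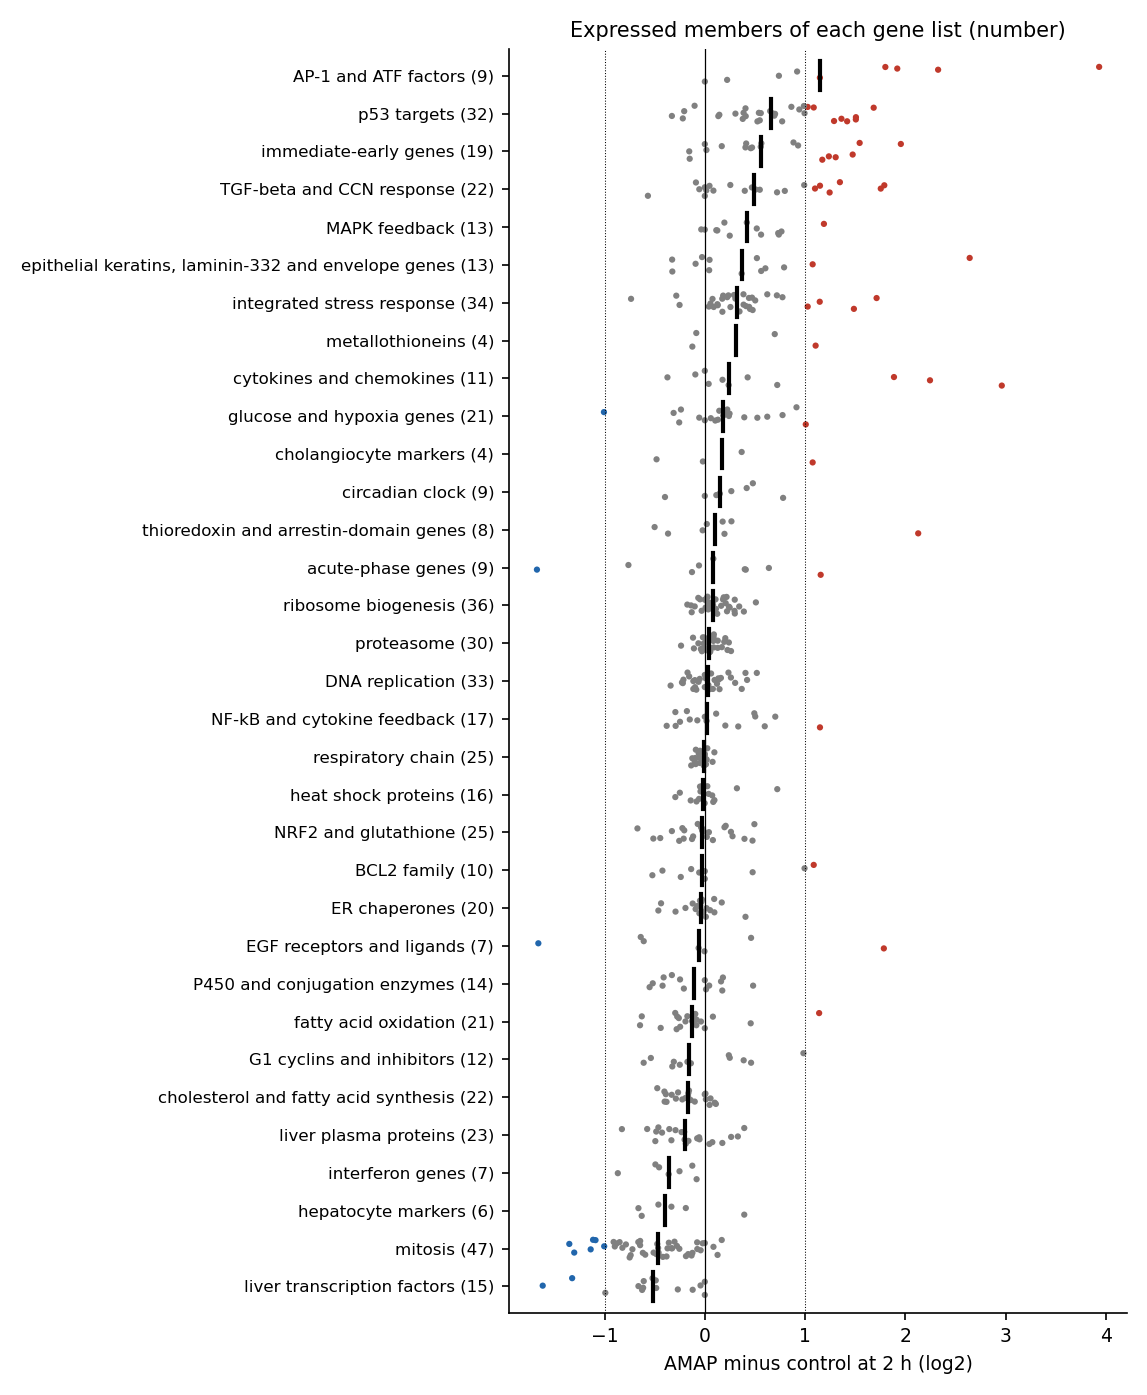
Each point is an expressed member of a gene list, placed by its log2 difference between AMAP and control at 2 h; black bars are medians and dotted lines 2-fold differences. AP-1 and ATF factors have the highest median (1.15), followed by p53 targets (0.66), and liver transcription factors (-0.52) and mitosis genes (-0.47) the lowest.

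Other immediate-early genes went the same way. Of 19 expressed members 17 were higher, with a median of 0.56 (0.43 against the later controls), and 10 were above all 3 controls. The shares over all expressed genes were 45.1% higher and 17.1% above all 3. Egr1, a zinc finger factor induced by growth signals, measured 9.67, 9.59 and 9.27 on the control arrays at 2, 6 and 24 h and 11.14, 9.26 and 11.45 with AMAP. The AMAP arrays of 2 and 24 h were thus both above every control, and that of 6 h was below them all. Ier3 (8.29 to 9.46), Gadd45b (8.23 to 9.47) and Rhob (7.80 to 9.11) were 2-fold higher and above all controls, whereas Klf10 went from 5.45 to 6.99 with a control of 24 h at 7.50. The genes Sgk1 and Btg1 were lower, by -0.15 and -0.16, and Klf2, which was too dim for the expressed set, differed by -1.05.

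Feedback regulators of the MAP kinases, which these kinases induce and which switch them off, were higher in 11 of 13 expressed members (median 0.42, and 0.19 against the later controls). The phosphatase Dusp1 went from 8.92 to 10.11, with controls of 8.89 at 6 h and 9.88 at 24 h. Spry2 (0.76), Etv4 (0.74), Dusp10 (0.73) and Dusp6 (0.52) followed. The line's transgene belongs to the EGF family. In the list of its ligands and receptors, which also counts the adaptor Grb7 and Adam17, 5 of 7 expressed members were lower. The share over all expressed genes was 50.9%, and the median of the list was -0.06, with Erbb3 at -0.64. The 2 higher members were the receptor Egfr (0.46) and the ligand Hbegf (7.66 to 9.45, other controls 8.45 and 8.28). The adaptor Grb7, which binds these receptors, was the second lowest gene on the array: it measured 8.56, 7.99 and 7.83 on the control arrays, 6.90 with AMAP at 2 h, and 8.19 and 7.99 with AMAP at 6 and 24 h. Tgfa itself differed by -0.61 from the control of 2 h and by 0.00 from the mean of the later controls.

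Genes for secreted signals were among the highest single genes, although their list as a whole was mixed. Of 11 expressed cytokine and chemokine genes 8 were higher and 4 were above all controls, against 45.1% and 17.1% of expressed genes. Their median was 0.24 against the control of 2 h and -0.01 against the later ones. Csf2, which encodes the growth factor GM-CSF, measured 6.22 on the control array at 2 h and 9.18 with AMAP, a difference of 2.96. The other controls stood at 8.17 and 7.27 and APAP at 2 h at 8.46, so that the control of 2 h was far below all of them. Lif, an interleukin-6 family cytokine, measured 6.12, 6.78 and 6.66 on the control arrays and 8.36 with AMAP at 2 h. Cxcl10, an interferon-inducible chemokine, measured 5.93, 5.65 and 6.29 on the controls and 7.81 with AMAP. For both, AMAP at 2 h was the highest of the 9 arrays. The dim chemokine gene Cxcl2 (3.80 to 5.74) was called too, as was, outside this list, the dim gene Ptgs2 (3.80 to 5.69). The other controls of both genes were no higher than 4.06. In contrast, all 7 expressed interferon genes were lower, with a median of -0.36, and 4 of them, led by Usp18 (6.59 to 5.72), were below all controls. Over all expressed genes 50.9% were lower and 26.4% below all controls.

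Targets of p53, the DNA damage responsive tumour suppressor, were higher almost throughout. Of the 32 expressed members 28 were higher, with a median difference of 0.66, and 26 were above all 3 controls, against 17.1% of expressed genes. Against the mean of the controls of 6 and 24 h the median was 0.46. APAP at 2 h, set against the same control array, gave a median of 0.09 over these genes. A difference between the isomers could not be tested with 1 array each.

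The cell cycle inhibitors of the list were highest, all 7 expressed ones above every control with a median of 1.36. Cdkn1a, which encodes the inhibitor p21, measured 8.67, 9.17 and 9.43 on the control arrays at 2, 6 and 24 h, 10.35, 8.58 and 10.37 with AMAP, and 9.22, 9.57 and 10.85 with APAP. The AMAP arrays of 2 and 24 h were above every control and that of 6 h below. Btg2, an antiproliferative gene, had controls of 8.75, 8.38 and 8.96 and reached 10.26 with AMAP at 2 h, and its second probe set differed by 1.73. Plk2, a kinase of the centrosome cycle, went from 8.97 to 10.47, with other controls of 9.51 and 9.23. Gadd45a went from 6.45 to 7.81, above controls of 6.18 and 7.26.

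Feedback regulators of p53 itself followed, with all 4 above every control and a median of 0.97. Mdm2, the ubiquitin ligase that marks p53 for degradation, had the narrowest control range of the 93 genes, 9.18, 9.32 and 9.32. With AMAP it measured 10.60 at 2 h, 9.18 at 6 h and 10.66 at 24 h, and with APAP 9.28, 9.22 and 10.27. Its difference of 1.42 at 2 h compares with a control range of 0.14, and its second probe set differed by 1.61. Trp53inp1, whose product promotes p53 activity, went from 7.88 to 9.17, the cyclin Ccng1 from 10.16 to 10.81, and the phosphatase Ppm1d from 6.51 to 7.03.

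All 11 expressed members that act in cell death were higher, with a median of 0.56, and 10 were above all controls. Bbc3, which encodes the BH3-only protein PUMA, had controls of 6.20, 6.37 and 6.61 and reached 7.29. Pmaip1, which encodes NOXA, went from 8.95 to 9.95, just under the 2-fold limit, with other controls of 7.09 and 9.23. Aen (8.16 to 9.03), Fas (6.41 to 6.95) and Perp (8.47 to 9.02) showed the same direction. The wider BCL2 family did not, for its 10 expressed members had a median of -0.03. Its guards Mcl1 (-0.06), Bcl2l1 (0.00) and Bcl2l2 (0.00) stayed near the control, the last 2 with equal values on both arrays. Such equal values occurred in 5.59% of all 22690 probe sets. Of the 7 expressed effectors and BH3-only genes of the family 3 were higher, among them Bbc3 and Bcl2l11 (0.48). The other 4 were lower, among them the effector Bak1 (-0.42) and the BH3-only gene Bid (-0.52). Bcl2l11, at 9.32 with AMAP, lay within the range of the controls, from 7.98 to 9.89. Its further probe sets at or above the median disagreed in sign (1.40, 0.12, -0.04 and -0.17).

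Repair and metabolic targets of p53 were less uniform, with medians of 0.27 and 0.39. Phlda3, which encodes a repressor of the kinase AKT, went from 8.87 to 9.86, above all controls. The translesion polymerase Polk (7.36 to 8.30) and the ribonucleotide reductase subunit Rrm2b (6.86 to 7.56) were higher and above all controls. Xpc and Ddb2, which recognise damage in nucleotide excision repair, were lower by -0.10 and -0.22. Cd82 (-0.21) and the epoxide hydrolase Ephx1 (-0.33) were the other members below the control.

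**Figure D3:**
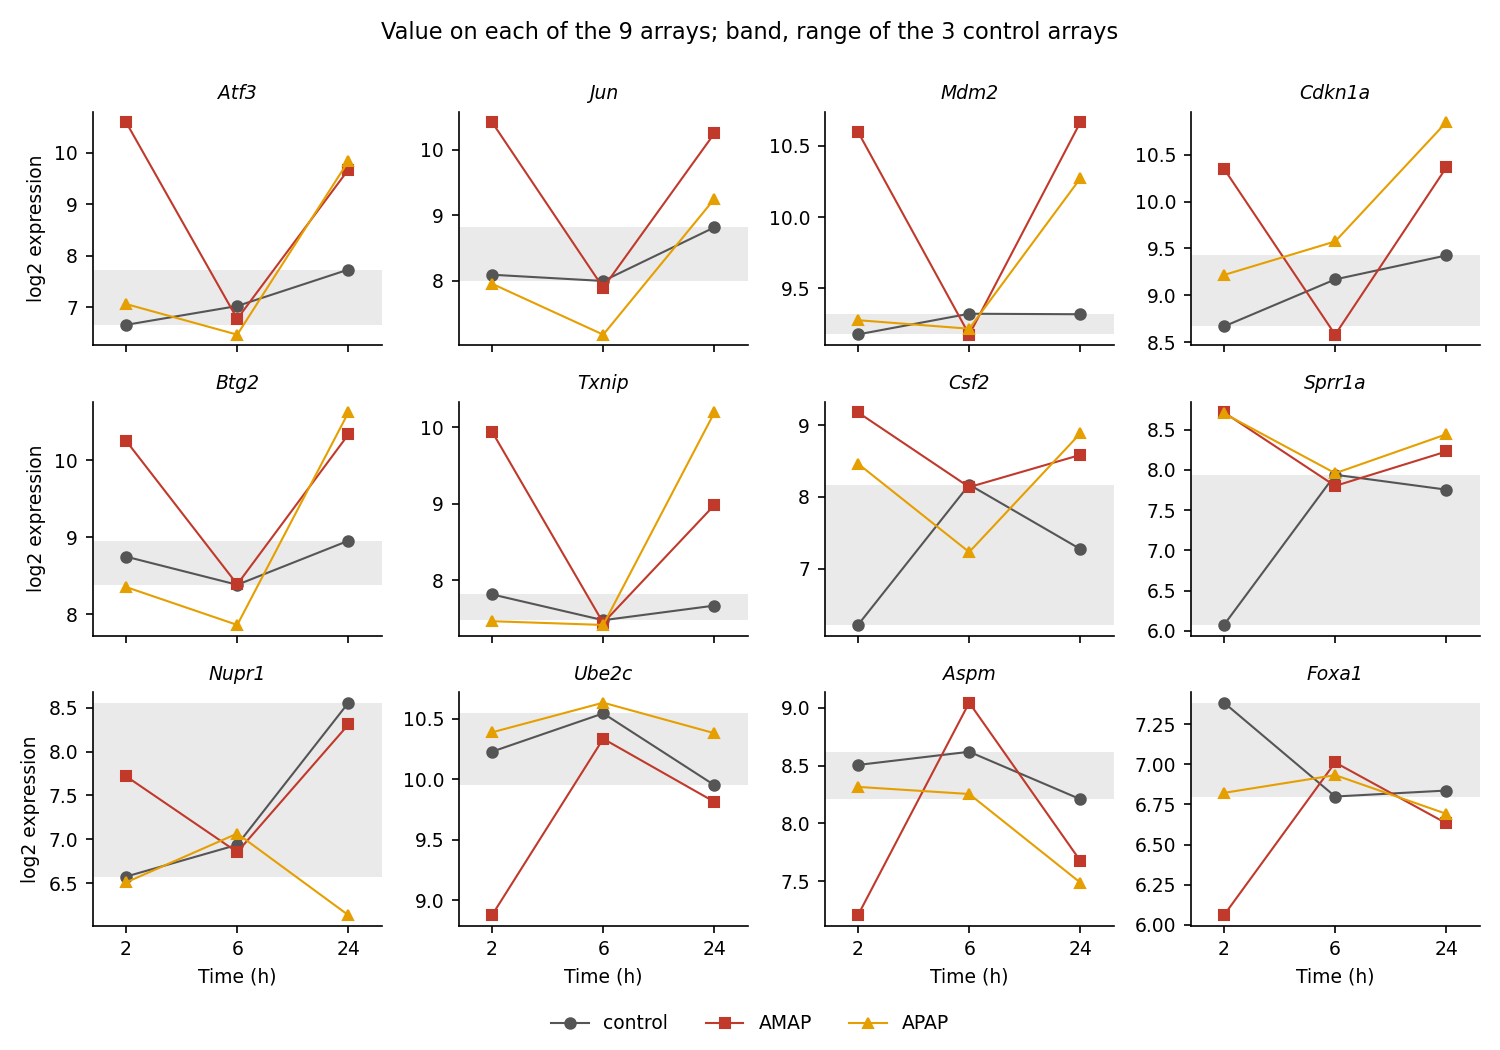
Log2 expression of 12 genes on each of the 9 arrays, by time, for control (grey circles), AMAP (red squares) and APAP (orange triangles), 1 array per point. Grey bands show the range of the 3 control arrays; vertical axes differ between genes and times are evenly spaced. Mdm2 reached 10.60 with AMAP at 2 h above a band from 9.18 to 9.32, whereas Nupr1, at 7.72, stayed inside its band.

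Several of the leading genes carry a cyclic AMP response element, TGACGTCA, the palindrome bound by CREB and ATF proteins, close upstream of their start. Promoters of 71 of the 93 higher genes were found in the RefSeq promoter table (GRCm38.p6), and the 200 bases before each of their 84 starts were searched on both strands. The full palindrome occurred in 8 of the 84 (9.52%), against 2.51% of 7119 promoters of expressed genes and 1.47% of all 32851. The AP-1 letters TGANTCA occurred in 10.7%, against 3.36% and 5.48%. TGATGNAA (TTNCATCA on the other strand), the letters of the amino acid response element bound by C/EBP and ATF4 dimers, occurred in 7.14%, against 1.55% and 2.87%. No stretch can match more than 1 of these 3 motifs over its full length. The same promoters were also searched for the E-box CACGTG (8.33%, against 7.67% of promoters of expressed genes) and CCAAT (39.3%, against 32.7%). For TTTGAA the share was 3.57%, against 7.33%. In the 29 promoters of lower genes the palindrome, the AP-1 letters and the amino acid response letters occurred in 3.45%, 6.90% and 3.45%. The search gives letters only and shows no binding. Printed are 3 promoters with the palindrome (Btg2, Plk2, Ppp1r15a), 2 with the amino acid response letters (Atf3, Nupr1) and 1 with a pair of AP-1 sites (Sprr1a), 5′ to 3′ on the gene's strand and ending at the base before the start. Capitals mark the motif for which each is shown.
Btg2, chr1:134079156-134079355, minus strand: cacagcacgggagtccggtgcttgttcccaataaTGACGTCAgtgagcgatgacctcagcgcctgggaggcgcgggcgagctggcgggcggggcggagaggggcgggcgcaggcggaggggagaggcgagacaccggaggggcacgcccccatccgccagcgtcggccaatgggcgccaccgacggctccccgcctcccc
Plk2, chr13:110394844-110395043, plus strand: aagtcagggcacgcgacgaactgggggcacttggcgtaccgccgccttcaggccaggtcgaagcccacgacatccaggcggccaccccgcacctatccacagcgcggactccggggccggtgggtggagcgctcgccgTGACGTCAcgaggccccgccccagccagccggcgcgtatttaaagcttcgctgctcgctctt
Ppp1r15a, chr7:45526269-45526468, minus strand: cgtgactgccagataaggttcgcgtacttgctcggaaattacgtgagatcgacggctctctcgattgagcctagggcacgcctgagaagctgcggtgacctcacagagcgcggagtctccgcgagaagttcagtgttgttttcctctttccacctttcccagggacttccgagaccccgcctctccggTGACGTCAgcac
Atf3, chr1:191183334-191183533, minus strand: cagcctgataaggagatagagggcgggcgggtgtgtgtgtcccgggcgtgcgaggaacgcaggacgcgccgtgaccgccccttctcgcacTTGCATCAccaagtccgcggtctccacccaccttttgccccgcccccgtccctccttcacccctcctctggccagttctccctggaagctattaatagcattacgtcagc
Nupr1, chr7:126625471-126625670, minus strand: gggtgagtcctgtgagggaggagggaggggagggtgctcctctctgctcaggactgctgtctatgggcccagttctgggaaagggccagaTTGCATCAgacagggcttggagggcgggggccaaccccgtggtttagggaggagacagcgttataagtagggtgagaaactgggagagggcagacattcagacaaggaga
Sprr1a, chr3:92485882-92486081, minus strand: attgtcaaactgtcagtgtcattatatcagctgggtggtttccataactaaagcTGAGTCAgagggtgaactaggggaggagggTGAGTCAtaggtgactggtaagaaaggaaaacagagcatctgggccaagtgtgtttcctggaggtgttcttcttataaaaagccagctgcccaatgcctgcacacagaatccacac

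The palindrome ended 159 bases before the start in Btg2, 55 in Plk2 and 5 in Ppp1r15a. In Atf3 and Nupr1 the amino acid response letters lay at the same distance, from 110 to 103 bases before the start. Their values differed all the same: Atf3 was far above its controls and Nupr1 within their range.

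Genes of mitosis formed the largest group on the lower side. Of 47 expressed members 43 were lower with AMAP, 3 were higher and 1 was equal, with a median of -0.47; over all expressed genes 50.9% were lower. AMAP was below all 3 controls in 38 of the 47, against 26.4% of expressed genes, and 6 were 2-fold lower, against 0.373%. Measured from the mean of the later controls the median was -0.61, further from 0 than against the control of 2 h. With APAP at 2 h the same genes had a median of 0.00 against that same control array.

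Ube2c, the ubiquitin-conjugating enzyme of the anaphase-promoting complex, was lowest. It measured 10.23, 10.54 and 9.95 on the control arrays at 2, 6 and 24 h, 8.88, 10.33 and 9.81 with AMAP, and 10.39, 10.63 and 10.38 with APAP. The AMAP array of 2 h was thus apart from the other 8. Aspm, which organises spindle poles, measured 8.51, 8.62 and 8.21 on the controls and 7.20, 9.05 and 7.67 with AMAP, and its second probe set differed by -0.97. Kif11, the kinesin that pushes spindle poles apart, measured 7.53, 7.58 and 7.21 on the controls and 6.39 with AMAP at 2 h, and its further probe sets differed by -0.87 and -0.60. Nusap1, a spindle microtubule protein, had controls within 0.12 of each other (8.92, 8.80 and 8.88) and 7.83 with AMAP. Cenpf (8.78 to 7.67) and Plk1 (8.42 to 7.41) completed the 2-fold members.

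By role, 16 of 17 spindle and kinetochore genes (median -0.59), 14 of 15 kinases, cyclins and checkpoint genes (-0.42) and 5 of 6 genes of the anaphase-promoting complex (-0.42) were lower. The kinases Aurka (8.48 to 7.60), Aurkb (8.23 to 7.33) and Cdk1 (10.02 to 9.37), the checkpoint protein Bub1b (8.25 to 7.40) and the topoisomerase Top2a (10.63 to 9.72) were each below all controls. Exceptions were Ckap2 (0.17), Ube2s (0.13) and Mad2l1 (0.09). The condensin and cytokinesis genes moved least, with 8 of 9 lower and a median of -0.30. Among genes of DNA replication 18 of 33 were higher and 13 lower (median 0.04). In this list AMAP was nonetheless above all controls in 16 genes (48.5%, against 17.1% of expressed genes), led by Cdc6 (8.35 to 8.87), Rrm2 (10.17 to 10.59) and E2f1 (7.10 to 7.51), although E2f1 reached 7.88 with AMAP at 24 h.

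The promoters of mitotic genes are known for a CHR element, TTTGAA, through which the DREAM and B-MYB complexes act in the cell cycle. The element is paired with CCAAT boxes. In 200 bases upstream of 43 starts of 40 expressed mitosis genes, TTTGAA on either strand occurred in 19 (44.2%), against 7.33% of promoters of expressed genes and 12.5% of all. CCAAT occurred in 35 of the 43 (81.4%), against 32.7% and 29.3%, and more than 1 box in 46.5%, against 12.0% of expressed genes. Replication genes had TTTGAA in 6.06% and CCAAT in 57.6% of 33 promoters. Among mitosis genes at least 1.5-fold lower with AMAP 9 of 18 promoters held TTTGAA, and among the others 10 of 25. Ube2c, Kif11 and Top2a are printed because they combine a difference near or past 2-fold with both kinds of letters; capitals mark TTTGAA or TTCAAA and CCAAT or ATTGG.
Ube2c, chr2:164769729-164769928, plus strand: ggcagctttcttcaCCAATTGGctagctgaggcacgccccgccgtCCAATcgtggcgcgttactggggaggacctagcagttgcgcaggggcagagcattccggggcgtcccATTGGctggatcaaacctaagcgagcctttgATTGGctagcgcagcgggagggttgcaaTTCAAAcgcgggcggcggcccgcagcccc
Kif11, chr19:37376182-37376381, plus strand: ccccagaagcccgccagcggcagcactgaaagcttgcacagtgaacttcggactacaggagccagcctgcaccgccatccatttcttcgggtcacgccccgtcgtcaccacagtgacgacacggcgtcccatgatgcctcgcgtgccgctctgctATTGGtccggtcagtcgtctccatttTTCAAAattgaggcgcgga
Top2a, chr11:99024190-99024389, minus strand: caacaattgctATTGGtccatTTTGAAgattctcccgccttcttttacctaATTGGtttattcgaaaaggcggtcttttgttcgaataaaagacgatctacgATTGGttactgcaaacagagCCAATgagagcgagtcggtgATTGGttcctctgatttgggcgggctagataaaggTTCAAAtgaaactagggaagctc

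In these promoters the TTCAAA nearest the start began 29 bases before it in Ube2c, 19 in Kif11 and 23 in Top2a. Top2a held a second CHR match from 179 to 174 bases upstream. Ube2c and Top2a each carried 5 CCAAT boxes, of which the outermost 2 of Ube2c overlap, and Kif11 carried 1.

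The integrated stress response, in which phosphorylated eIF2alpha lets ATF4 be translated, was higher against the control of 2 h and lower against the mean of the later controls. Of 34 expressed members 31 were higher, with a median of 0.33, and 4 (11.8%) were above all 3 controls, against 17.1% of expressed genes. Against the mean of the controls of 6 and 24 h the median was -0.14. Between the controls themselves, the median of the list was higher by 0.11 at 6 h and by 0.67 at 24 h than at 2 h. APAP at 2 h gave -0.24 against the shared control, and AMAP gave -0.43 at 6 h and 0.12 at 24 h.

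Besides the 4 members above every control, 1 was below them all (Slc3a2, difference -0.28) and the other 29 lay within their range. Ddit3, which encodes CHOP, measured 7.42, 7.28 and 8.28 on the controls, 9.14, 6.46 and 8.95 with AMAP, and 6.33, 7.45 and 9.06 with APAP. Ppp1r15a, which encodes the eIF2alpha phosphatase subunit GADD34, measured 6.78, 6.77 and 7.06 on the controls and 8.27, 6.33 and 8.16 with AMAP. For both, the AMAP arrays of 2 and 24 h were above all controls. Nupr1, an ATF4 target, measured 6.57, 6.94 and 8.56 on the controls and 7.72 with AMAP at 2 h, inside their range. The amino acid genes Asns (9.62 to 10.06, control of 24 h 10.45), Slc7a5 (8.21 to 8.98, control of 24 h 9.23) and Cth (8.53 to 9.01, control of 24 h 9.46) were also inside it. All 7 expressed genes of tRNA charging were higher than the control of 2 h, with a median of 0.12, and none was above all controls. Herpud1 went the other way, from 10.11 to 9.37.

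Among other stress programmes, ER chaperones (20 expressed genes, median -0.04, Hspa5 0.05), heat shock proteins (16, median -0.02, Hspa8 -0.14) and NRF2 and glutathione genes (25, median -0.03) had medians near 0. None had a 2-fold expressed member, where 1.24% of expressed genes were 2-fold higher and 0.373% 2-fold lower. Heat shock genes went both ways, with 5 of 16 above all 3 controls and 6 below, against 17.1% and 26.4% of expressed genes. Within the NRF2 and glutathione list Gclc (10.60 to 10.37), Gclm (8.84 to 8.81), Txnrd1 (0.20) and Hmox1 (6.28 to 6.49) covered glutathione synthesis, thioredoxin and haem breakdown. Slc7a11 was called from 4.32 to 5.74 as a dim gene whose control of 24 h was 6.19. Catalase (Cat) was lower, from 9.49 to 8.82, with a control of 8.46 at 6 h. The small heat shock gene Hspb1 was higher, from 10.41 to 11.13, with other controls of 10.79 and 10.47. The metallothioneins Mt2 (10.49 to 11.59) and Mt1 (10.99 to 11.69) were higher than the control of 2 h and within the range set by the controls of 11.24 and 11.62 for Mt2 and 11.91 and 11.76 for Mt1.

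Txnip, which encodes an arrestin-like protein that binds thioredoxin and restrains glucose uptake, was the 2-fold member of its list, in which 5 of 8 expressed genes were higher (median 0.10) and 4 were above all controls. Its controls were 7.81, 7.48 and 7.67. With AMAP it measured 9.94 at 2 h, 7.44 at 6 h and 8.98 at 24 h, and with APAP 7.46, 7.41 and 10.19. The difference of 2.13 at 2 h was matched by its second probe set, 2.25. Among glucose and hypoxia genes Slc2a1 (8.09 to 9.00) and Hk2 (6.94 to 7.95) were above all controls, and the hepatic transporter Slc2a2 was lower (6.44 to 5.43).

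Genes of the TGF-beta and CCN response were higher in 17 of 22 expressed members, with a median of 0.49, and AMAP was above all controls in 7 (31.8%, against 17.1% of expressed genes). Ccn1, a matricellular protein gene driven by YAP and serum response factor, measured 9.11, 10.25 and 10.08 on the controls and 10.90 with AMAP. The related Ccn2 measured 9.65, 10.78 and 10.47 on the controls and 10.90. For both the control of 2 h was well below the other controls, and against the later controls the list had a median of 0.14. Skil (7.93 to 9.28) and Smad7 (5.50 to 6.60) encode feedback inhibitors of the pathway, and Smad7 remained under its control of 24 h, 6.65. The APAP array of 2 h gave a median of 0.51 for this list against the shared control.

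The median of epithelial genes showed the same dependence on the control used. Sprr1a, a cornified envelope gene of squamous epithelium that is also induced in stressed cells, had controls of 6.07, 7.94 and 7.75, AMAP at 8.71 and APAP at 8.70 at 2 h. The simple keratins Krt8 (11.39 to 11.95) and Krt18 (11.29 to 11.89) were higher than the control of 2 h and differed by 0.02 and -0.02 from the mean of the later controls. The bile duct keratin Krt19 went from 6.58 to 7.66, with other controls of 7.38 and 7.47. The list had a median of 0.37 against the control of 2 h and 0.07 against the later ones. AMAP was nonetheless above all 3 controls in 6 of 13 expressed members (46.2%, against 17.1% of expressed genes).

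**Figure D4:**
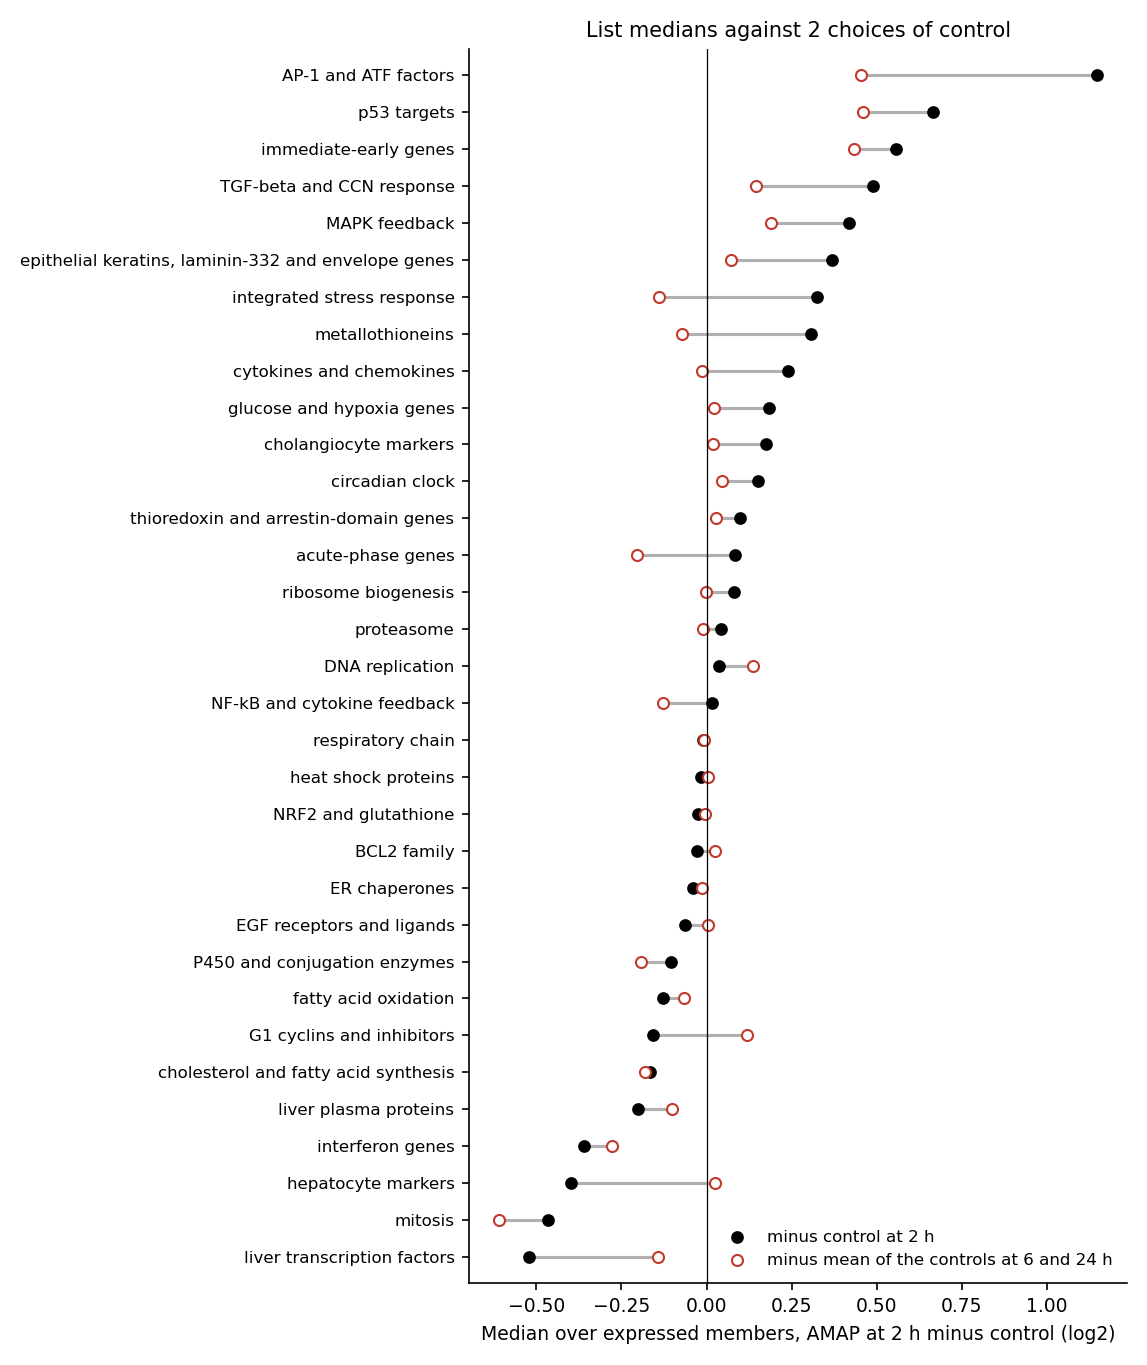
Median log2 difference of AMAP at 2 h over the expressed members of each list, against the control array of 2 h (filled) and against the mean of the control arrays of 6 and 24 h (open). The median of mitosis genes goes from -0.47 to -0.61 and that of p53 targets from 0.66 to 0.46, whereas the integrated stress response goes from 0.33 to -0.14 and liver transcription factors from -0.52 to -0.14.

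Liver transcription factors had the lowest median of the lists, -0.52, with 13 of 15 expressed members lower, none higher and 8 below all controls. The shares over all expressed genes were 50.9% lower and 26.4% below all controls. Against the later controls the median was -0.14, and APAP at 2 h gave -0.51 against the shared control. Klf15, a factor of hepatic amino acid and glucose metabolism, measured 7.58, 6.64 and 6.88 on the controls, 5.96, 6.64 and 6.45 with AMAP, and 6.36, 6.33 and 6.81 with APAP. The pioneer factor Foxa1 measured 7.38, 6.80 and 6.84 on the controls and 6.06 with AMAP at 2 h. In both the AMAP array of 2 h was the lowest of the 9 and the control of 2 h the highest control. Foxa2 (8.43 to 7.43) and Hnf4a (9.70 to 9.04) were also below all controls, and Nr5a2 (7.05 to 6.44) was not, with a control of 6.08 at 6 h.

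Among products of the differentiated hepatocyte, 17 of 23 expressed plasma protein genes were lower (median -0.20), against 50.9% of expressed genes. Fibrinogen alpha (Fga, 9.79 to 8.97) was the lowest of them. Albumin differed by -0.19, and Apob was higher by 0.39. The acute-phase genes diverged: Crp had the lowest difference on the array, -1.67, with controls of 7.88, 6.90 and 6.94 and 6.20 with AMAP, whereas Orm1 (5.30 to 6.45) and Lcn2 (7.32 to 7.96) were higher. The cysteine dioxygenase Cdo1 went from 9.36 to 7.79, with other controls of 8.22 and 8.37 and APAP at 7.90. Medians were small for fatty acid oxidation (-0.13, 17 of 21 lower), cholesterol and fatty acid synthesis (-0.17, 16 of 22 lower) and P450 and conjugation genes (-0.10, 7 of 14 lower). AMAP was nonetheless below all controls in 42.9%, 45.5% and 35.7% of these lists, against 26.4% of expressed genes. Their only 2-fold member was the kinase Pdk4, which restrains glucose oxidation, at 6.71 on the control and 7.85 with AMAP. Outside these lists, the conjugation gene Ugt2b34 was called lower, from 8.31 to 7.14, with other controls of 7.25 and 7.98. Respiratory chain (25 genes, -0.01), proteasome (30, 0.04) and ribosome biogenesis (36, 0.08) had no 2-fold member. Of all expressed genes 1.24% were 2-fold higher and 0.373% 2-fold lower. Ribosome biogenesis had a median of 0.51 with APAP at 2 h against the same control.

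Across the 123 genes the standing against the controls was as follows. AMAP lay above all 3 controls, with a difference from the control of 2 h larger than the whole control range, in 71 of the 93 higher genes, and below all 3 with such a difference in 27 of the 30 lower genes. Expressed genes that were 2-fold higher and met this made up 0.94% and those 2-fold lower 0.343%, shares that contain the 2-fold call and are no background for these counts. It was the highest of all 9 arrays in 42 of the 93, against 5.31% of expressed genes, and the lowest in 19 of the 30, against 9.55%. The control of 2 h was the lowest control in 71 of the 93, against 32.3% of expressed genes, and the highest in 25 of the 30, against 27.0%. The genes were chosen by the AMAP and control values of 2 h, so extreme positions of these arrays among them are favoured by the choice, and nothing is read from the comparison with all expressed genes. Against the mean of the later controls 27 of the 93 were still 2-fold higher and 87 on the same side, and 7 of the 30 were still 2-fold lower and all 30 on the same side. Since a single array stands for the control of 2 h, time in culture, its dishes and that array cannot be told apart.

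Where a gene had several usable probe sets, they mostly went together. Further probe sets at or above the median existed for 39 of the 123 genes, and in 35 of them every one differed in the same direction by at least 0.5. In Fam210b and Pvr a further probe set kept the direction with less than 0.5. In Taf1d and Snhg1 they disagreed in sign. Taf1d was called from a probe set at 6.88 and 8.23, while its other usable ones differed by -0.13, -0.30 and -0.29, and Snhg1 had probe sets of 1.05, 1.42 and 0.91 beside others of -0.56 and -0.24. Both genes host small nucleolar RNAs in their introns. The remaining 84 genes rested on a single usable probe set. At the limit, Hk2 (1.01), Tinagl1 (1.02) and Ddit4 (1.03) were just inside and Pmaip1 (0.99), Tgfbr1 (0.99) and Phlda3 (0.99) just outside on the higher side, and on the lower side Plk1 (-1.003), Pxmp4 (-1.01) and Slc2a2 (-1.01) were inside and Foxa2 (-0.99), Nedd4l (-0.98) and Stxbp4 (-0.97) outside.

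At the later times AMAP had its own controls, so those comparisons are separate. At 6 h, 30 of the 93 genes (32.3%) differed in the same direction as at 2 h, near the 34.2% of all expressed genes that were higher; 3 of them did so by 2-fold, and 4 were 2-fold the other way. At 24 h, 66 (71.0%) were in the same direction, against 59.7% of expressed genes, 14 of them by 2-fold, and 3 were 2-fold the other way. Over all genes 0.589% were called higher at 6 h and 0.412% at 24 h. Of the 30 lower genes 9 (30.0%) were lower at 6 h, against 64.4% of expressed genes, and 17 (56.7%) at 24 h, against 39.1%. None was 2-fold lower at either time, where 0.137% and 1.48% of all genes were, and 5 were 2-fold higher at 6 h. Medians of p53 targets were 0.66, -0.11 and 0.28 at 2, 6 and 24 h, and those of AP-1 and ATF factors 1.15, -0.12 and 0.41, against -0.01, -0.10 and 0.10 over all expressed genes. Mitosis genes had medians of -0.47, -0.02 and -0.10. The higher groups were thus nearer the control at 6 h than at 2 or 24 h, and mitosis genes were far from it only at 2 h among these 3 times.

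**Figure D5:**
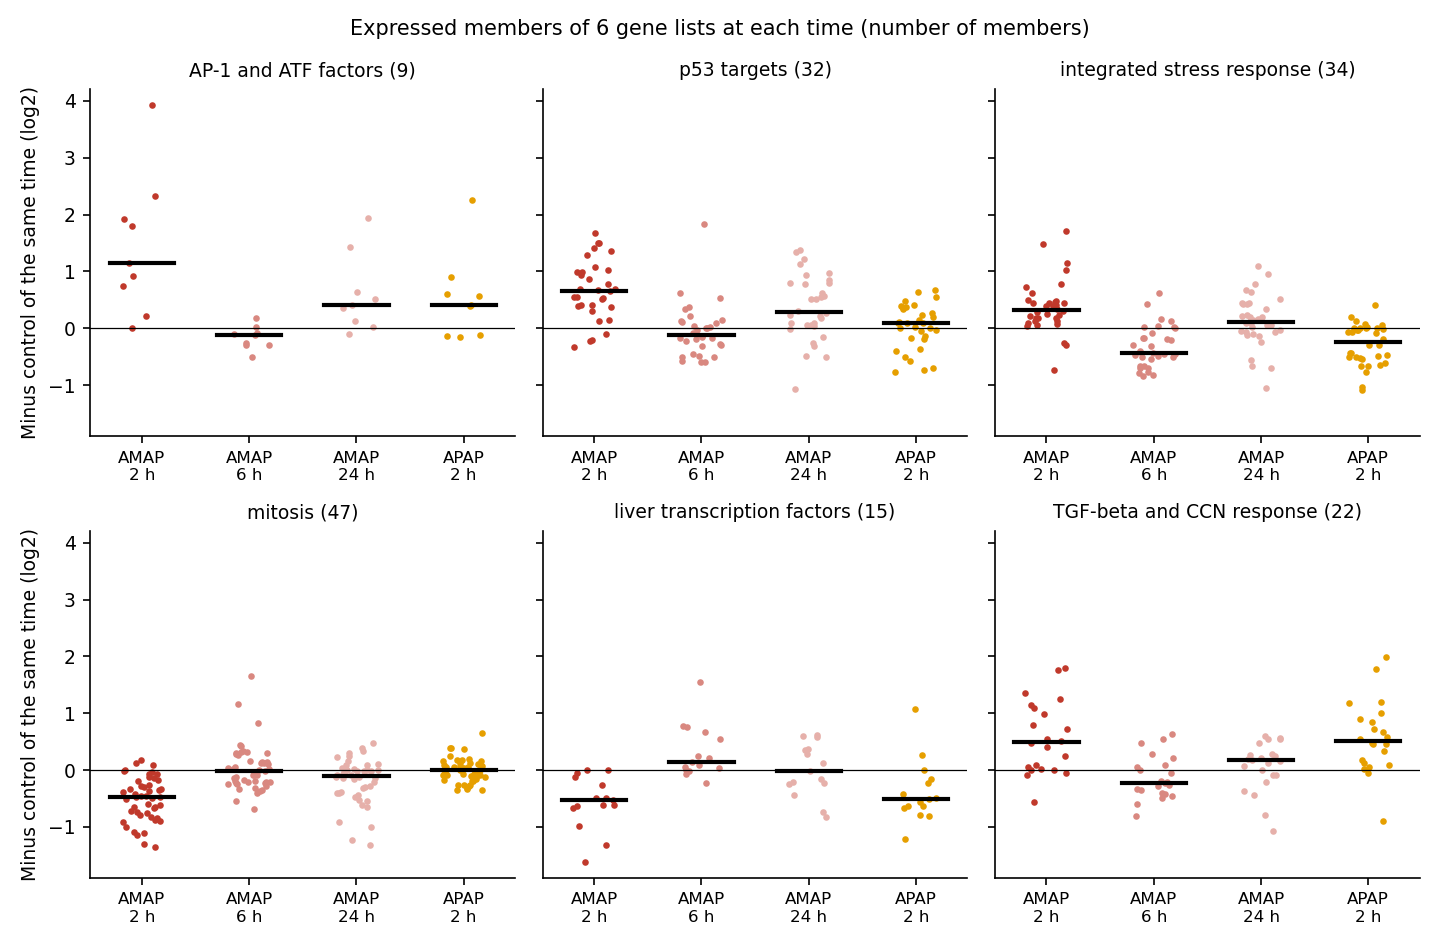
Log2 difference of the expressed members of 6 lists from the control array of the same time, for AMAP at 2, 6 and 24 h (red shades) and APAP at 2 h (orange); black bars are medians. APAP and AMAP at 2 h share a control array. The AMAP medians of p53 targets run from 0.66 to -0.11 and 0.28, and that of mitosis genes is -0.47 at 2 h beside 0.00 for APAP.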

How the data were processed

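RNA of TAMH cells was measured on 9 Affymetrix 430A_2 arrays, 1 per treatment and time, and the sample titles give the groups. The deposited values are log2 expression per probe set. Per the submitters' processing notes the authors used RMA and Affymetrix Expression Console. The software version was not given in the sources used here, nor was it said whether all arrays were processed together. RMA equalises intensity distributions, which hides any shift of total RNA, and it compresses differences of dim probe sets. Arrays have no depth, and their number limits the precision.

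Of 22690 probe sets 64 are control probe sets; GEO's platform annotation gave 20380 a single symbol, 691 several and 1555 none. Each of 12393 genes was represented by its brightest single-symbol probe set, by mean over all arrays. Differences were AMAP minus control at 2 h, with no p-value, since each group has 1 array. Named genes were the 15 highest and 15 lowest genes, in each list the 6 members with the largest difference and the 2 farthest against its median, Cdkn1a and Mdm2, and genes whose probe sets disagree in sign; further list members, 2-fold genes and genes at the limit are named as examples and were picked after their values were seen. The 36 gene lists and the comparison itself were chosen with earlier results of these data known. Alternatives covered the threshold, the filter, the probe sets, the control arrays used and 3 normalizations (limma 3.58.1 in R 4.3.3). The scripts ran in Python 3.11.15 with pandas 2.3.3 and were tested on simulated data. Promoters are the RefSeq table's (GRCm38.p6), matched by symbol.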

Additional observations from a re-analysis of the deposited data

Results flagged for a closer look

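For 11 of the 123 genes the AMAP difference was 2-fold one way at 2 h and 2-fold the other way at 6 or 24 h. Each value is a difference of 1 pair of arrays, and the difference between times was not tested. Higher at 2 h and lower at 6 h were Arid5a (1.21 and -1.40), the cadherin Cdh6 (1.41 and -1.08) and the matrix protein gene Fbln2 (1.32 and -1.02). Higher at 2 h and lower at 24 h were Crim1 (1.25 and -1.07), Pdk4 (1.14 and -1.10) and the TGF-beta target Pmepa1 (1.38 and -1.43). Lower at 2 h and higher at 6 h were Clca3a2 (-1.02 and 1.71), Crp (-1.67 and 1.15), lymphotoxin beta (Ltb, -1.26 and 1.48), the glucose transporter gene Slc2a2 (-1.01 and 1.56) and the transcription factor gene Spib (-1.43 and 2.06).

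The array carries control probe sets for the short interspersed repeats B1 and B2, which belong to no gene and entered no comparison. All 3 were higher with AMAP at 2 h than on every other array. The differences from the control of 2 h were 0.24 for the brightest B2 probe set (13.42 to 13.66), 0.51 for B1 (8.68 to 9.18) and 0.87 for the other B2 probe set (7.99 to 8.86). The highest of the other 8 arrays were 13.45, 9.17 and 8.13, so for B1 the margin over the next array was small.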

How the results depend on the processing

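Each group has 1 array, so no result has a replicate check. No paired analysis was possible because each group has a single array and the labels carry no replicate numbers. Counts of 2-fold genes (93 higher, 30 lower) changed by over 1.5 times with a 1.5-fold threshold (257 and 194, so that 57.0% of calls were higher instead of 75.6%), with the mean of the 3 controls (39 and 11), with the mean of the controls of 2 and 24 h (48 and 16), and with the mean of the controls of 6 and 24 h (31 and 11), a choice made after seeing the data. They stayed within 1.5 times without the filter on dim genes (104 and 30), with other probe set rules (from 78 to 89 and from 22 to 28) and with other normalizations (from 92 to 97 and from 25 to 32). The control of 6 and 24 h moved the medians of AP-1 and ATF factors to 0.45 and of p53 targets to 0.46, and turned the integrated stress response to -0.14 and Nupr1 to -0.029. Other called genes that changed sign were Slc7a11 (-0.08), Cdh6 (-0.09), H1f2 (-0.17), Arid5a (-0.03) and Lgals3 (-0.12). Further list medians changed sign too, among them metallothioneins (0.31 to -0.07), G1 cyclins and inhibitors (-0.16 to 0.12) and hepatocyte markers (-0.40 to 0.02). Mitosis became -0.57 with 3 controls and -0.61 with the later 2, and liver transcription factors -0.25 and -0.14. The TGF-beta and CCN response became 0.29 and 0.14, and 0.31 with the mean of all probe sets. The cause was not tested.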

Other observations

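Cirbp, whose RNA-binding protein is known for its cold response, was 2-fold higher with AMAP (5.78 to 7.79), but its other controls were 7.34 and 7.81. Among the controls only that of 2 h was low, and APAP at 2 h was low too, at 6.28. The linker histone gene H1f2 had the same form, at 9.47 on the control of 2 h and 10.86 with AMAP. It measured 10.88 and 11.17 on the later controls and 9.48 with APAP at 2 h. For Plat, which encodes tissue plasminogen activator, the controls were 8.20, 8.59 and 8.64, again lowest at 2 h, and AMAP at 2 h, at 9.45, was the highest of the 9 arrays; its difference was 1.25 from the control of 2 h and 0.83 from the mean of the later controls. The inhibitor of apoptosis gene Birc2 was lower, at 9.16 against controls of 10.17, 9.91 and 9.63.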
